A study of Mus musculus with 26 samples.

Results

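The ATF4 arm of the integrated stress response was followed through 10 of its genes, Atf4, Atf5, Ddit3, Trib3, Chac1, Asns, Sesn2, Psat1, Phgdh and Slc7a11. They were taken by symbol from a table of read counts for 24091 genes in 26 RNA-seq libraries. All 10 symbols were in the table, and all 10 passed the filter on low counts that left 13379 genes for testing. In the table's coordinates (build mm10, whole genes with exons and introns) the transcription factors lie at chr15:80255184-80257545 (Atf4), chr7:44812256-44816658 (Atf5) and chr10:127290793-127296288 (Ddit3). The regulators lie at chr2:152337425-152344060 (Trib3) and chr4:132492807-132510456 (Sesn2), and the glutathione-related genes at chr2:119351242-119354327 (Chac1) and chr3:50364936-50443613 (Slc7a11). The enzymes of amino acid synthesis lie at chr6:7675171-7693182 (Asns), chr19:15905123-15925059 (Psat1) and chr3:98313171-98339969 (Phgdh).

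In the integrated stress response, kinases that sense starvation of amino acids, unfolded protein in the endoplasmic reticulum (ER), lack of heme or double-stranded RNA phosphorylate the translation factor eIF2. General protein synthesis then slows while the mRNA of the transcription factor ATF4 is translated more. ATF4 pairs with other bZIP proteins and switches on genes for amino acid synthesis, amino acid import and glutathione metabolism, and, under lasting stress, genes that favour cell death. Because ATF4 is controlled mostly at translation, its mRNA level is only a partial readout, and the mRNAs of its targets are the usual one. In blood stem cells and in leukemia the pathway is known as a sensor that links protein synthesis to survival.

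A promoter site of this pathway, the C/EBP-ATF response element, has the core TGATGNAA. The core was searched for on both strands of the 250 bases upstream of RefSeq transcription starts (build GRCm38.p6). Members with a match are shown here because the levels of Chac1, Asns and Slc7a11 are set against each other below. All 10 members matched an entry, with 12 windows, and 3 of the 10 members (Chac1, Slc7a11 and Asns) held the core in 1 window each. Of the 32851 mouse promoter windows of this length that were searched, 3.45% held it. Windows of 1 chromosome, on which no member lies, were left out of the search. The capitals mark the core on either strand.

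Chac1, chr2:119351023-119351082, plus strand: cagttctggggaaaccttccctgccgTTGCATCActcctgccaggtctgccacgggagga

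Slc7a11, chr3:50443646-50443705, minus strand: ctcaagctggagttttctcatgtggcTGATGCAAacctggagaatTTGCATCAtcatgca

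Asns, chr6:7693210-7693258, minus strand: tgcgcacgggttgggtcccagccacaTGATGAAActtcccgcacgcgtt

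The Chac1 core lay 193 bases upstream of the start. Slc7a11 had 2 cores in opposite orientations, at 66 and 47 bases upstream, and the Asns core lay at 23 bases. A palindromic cAMP response element, TGACGTCA, was in 0 of the members' windows and in 1.55% of the windows searched. A match describes these letters in these windows and no binding was measured.

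The libraries were made from LSK cells (lineage-negative, Sca-1+, c-Kit+ cells, the bone marrow fraction that holds the stem cells) of mice with chronic myeloid leukemia (CML) on a C57BL/6 background. In these mice, named SCLtTA/BCR-ABL in the labels, the BCR-ABL oncogene is under a tetracycline-controlled activator expressed from Scl regulatory sequence. The groups were the global Spred1 knockout (global KO, 6 libraries), its wild type (Spred1 wt, 5), a knockout in hematopoietic cells by Mx1-cre (HSC KO, 5), its wild type (HSC wt, 5) and an endothelial-cell knockout (EC KO, 5). Spred1 codes for an inhibitor of Ras signalling to ERK. HSC KO and HSC wt mice received 7 doses of 250 µg poly(I:C), a double-stranded RNA mimic that induces Mx1-cre, every 2 days. Whether the other groups received it, the Cre of the endothelial knockout, and the ages are not given in the sources used here. An endothelial wild type, which the study used as the control of EC KO, is not analysed here. EC KO was set against Spred1 wt instead, and its differences hold any difference between the 2 wild types as well.

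Total counts lay between 14816071 and 26714325 per library. Spred1 itself fell in the global KO from 114 ± 20.7 to 32.7 ± 7.36 CPM (reads scaled to the size of the library, mean ± SD, n = 5 and 6; adjusted p = 2.86e-08). It fell in HSC KO from 104 ± 4.90 to 35.4 ± 7.29 CPM (adjusted p = 4.14e-06) and was lower in EC KO, at 70.4 ± 11.4 CPM, than in Spred1 wt (adjusted p = 0.00527). Kit was between 344 and 1249 CPM, Ly6a, which encodes Sca-1, between 41.0 and 83.6 CPM, and Cd3e, a T cell marker, did not exceed 1.40 CPM. The lineage marker Itgam, on the other hand, was read at 39.9 to 103 CPM, and the summed level of 12 mast cell and basophil markers ranged from 1690 to 17808 CPM. Xist, read from the inactive X chromosome of female cells, was between 2225 and 4533 CPM in some libraries of HSC KO (3), HSC wt (2) and EC KO (2) and did not exceed 5.07 CPM elsewhere, so sex and group are partly mixed. Adding either measure to the fit is among the alternatives. The libraries are bulk samples, in which fewer cells of a type and less RNA per cell cannot be told apart.

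Per kilobase of transcript, the members spanned more than 2 orders of magnitude. Atf4, at 133 ± 19.5 CPM per kb over the 26 libraries (mean ± SD), and Phgdh, at 128 ± 18.2, were highest and did not differ beyond their spread. Psat1 followed at 76.7 ± 13.1 CPM per kb, then Asns at 16.02 ± 6.83 and Ddit3 at 12.4 ± 3.24, whose ranges overlap. Atf5 was at 7.60 ± 2.59, Sesn2 at 4.25 ± 1.34 and Trib3 at 1.93 ± 1.37 CPM per kb. Chac1, at 0.674 ± 1.16, and Slc7a11, at 0.420 ± 0.306, were lowest and again within each other's spread. The number of reads behind a value thus differed widely between members: Chac1 had between 0 and 147 reads per library, and Atf4 between 3257 and 5773.

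**Figure D1:**
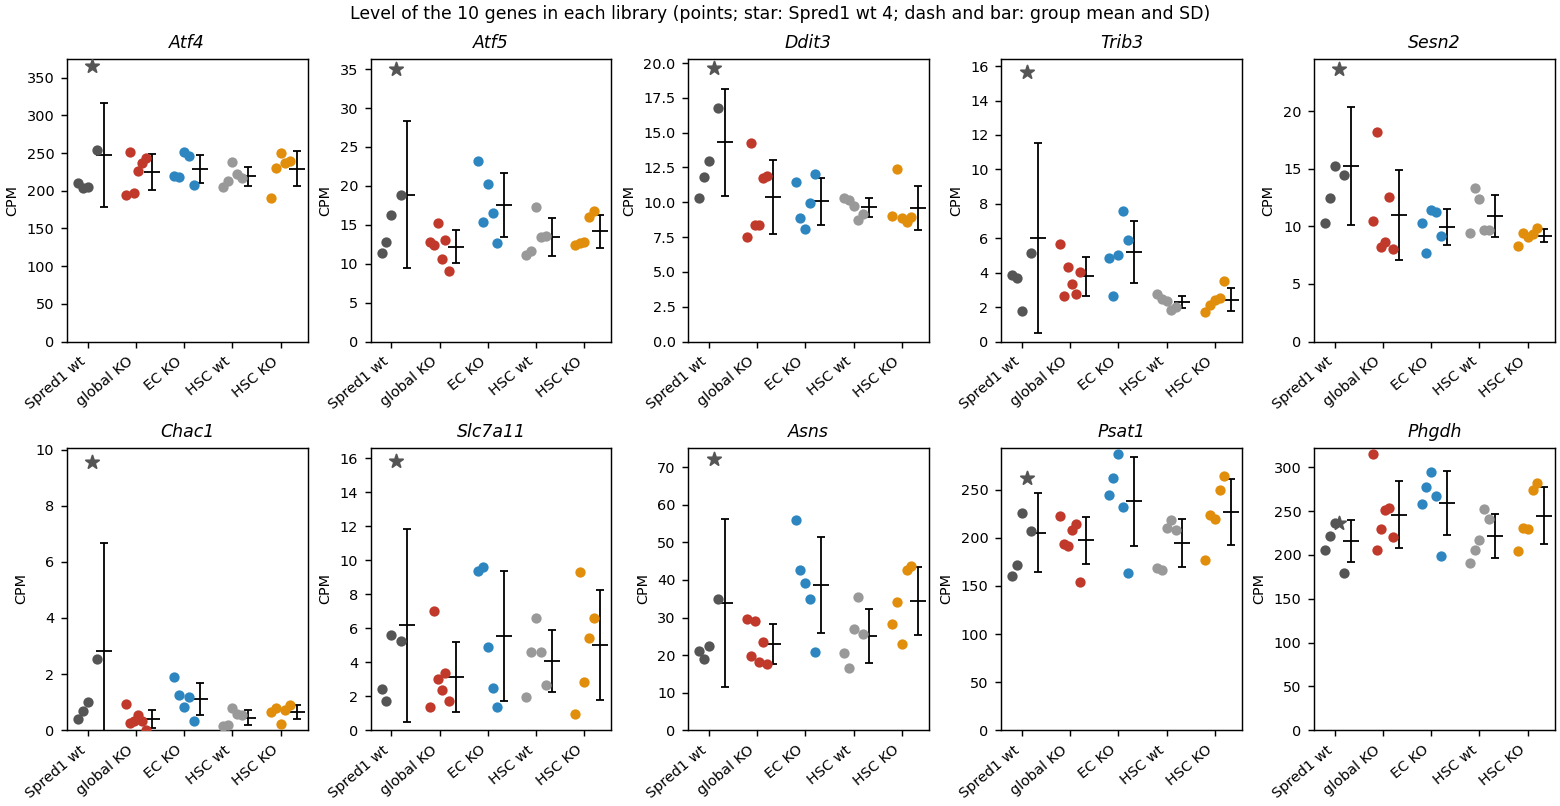
Level of each of the 10 genes (CPM, linear axes from 0) in every library by group; the star is the library Spred1 wt 4, and the dash with its bar gives each group's mean and SD. Spred1 wt 4 is the highest of all 26 libraries for 8 genes, the exceptions being Psat1 and Phgdh, and the groups overlap in nearly every panel.

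A single wild-type library stood apart. Spred1 wt 4 had the highest level of all 26 libraries for 8 of the 10 members, and ranked 4 for Psat1 and 12 for Phgdh. Of all 13379 genes tested, 5.18% were highest in this library. Its excess over the mean of the other 4 Spred1 wt libraries was 8.34-fold for Chac1, 4.33-fold for Trib3, 4.21-fold for Slc7a11 and 2.97-fold for Asns. It was smaller for Atf5 (2.36-fold), Sesn2 (1.81-fold), Atf4 (1.68-fold), Ddit3 (1.52-fold), Psat1 (1.37-fold) and Phgdh (1.12-fold). The same library was highest for 17 of 22 ER chaperone and XBP1-ATF6 genes, for 7 of 14 amino acid transporters and for 4 of 8 bZIP partners of ATF4. It was also highest for 5 of 15 serine, glycine and one-carbon enzymes and for 6 of 20 further ATF4 targets. Of 21 aminoacyl-tRNA synthetases 2 were highest in it and 11 had it among their top 3 libraries, where 13.9% of all genes did. It was highest for 1 of 17 eIF2 kinases and regulators, 1 of 13 NRF2 genes and 1 of 14 sestrin and mTORC1 regulators. Its summed level of 6 LSK sort markers, 2407 CPM, was the lowest of the 26 libraries, and its plasma cell markers and mast cell markers ranked 6 and 5 from the top. The part of these marker levels in the members' values was not tested. The members' comparisons with Spred1 wt, and those of the pathway lists, are therefore given with and without this library.

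Among the transcription factors, Atf4, the central activator, varied least. It was between 195 and 252 CPM in the global KO (median 231), and read 211, 204, 204, 365 and 254 CPM in Spred1 wt 1 to 5. In EC KO it lay between 208 and 251 CPM, in HSC wt between 205 and 238, and in HSC KO between 190 and 250. Apart from Spred1 wt 4, the 5 groups overlapped. Its biological coefficient of variation (the spread between libraries of a group beyond counting error) was 0.139. Among 1000 genes of like level 81.2% had a lower coefficient, against 83.4% for Atf5 and 68.4% for Ddit3 among genes of their levels.

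Atf5, a relative of ATF4 that is likewise translated under stress and supports the mitochondrial stress response, read 11.4, 12.8, 16.3, 35.0 and 18.9 CPM in Spred1 wt 1 to 5. In the global KO it lay between 9.12 and 15.2 CPM (median 12.6), which overlaps the lower Spred1 wt libraries. The EC KO libraries read 23.1, 15.3, 20.2, 16.5 and 12.6 CPM, and HSC wt (11.1 to 17.3) and HSC KO (12.4 to 16.8) lay within that span or just under it.

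Ddit3 codes for CHOP, the factor that turns lasting stress towards cell death. Its level was 10.3, 11.8, 12.96, 19.7 and 16.8 CPM in Spred1 wt 1 to 5, and 10.3, 10.2, 9.75, 8.72 and 9.19 CPM in HSC wt 1 to 5. All 5 HSC wt libraries were below all 5 Spred1 wt libraries, if by a narrow margin. The EC KO libraries read 11.5, 8.85, 8.08, 9.97 and 12.1 CPM, with 3 of 5 below every Spred1 wt library, and the global KO ranged from 7.53 to 14.2 CPM with 3 of 6 below.

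Trib3 is a pseudokinase that ATF4 and CHOP induce and that feeds back to restrain them. In Spred1 wt 1 to 5 it read 3.85, 3.70, 1.76, 15.7 and 5.14 CPM. The EC KO libraries read 4.85, 2.64, 5.01, 7.56 and 5.88 CPM, while HSC wt read 2.74, 2.46, 2.37, 1.85 and 2.03 CPM and HSC KO 1.69, 2.11, 2.397, 2.50 and 3.51 CPM. Thus 4 of the 5 EC KO libraries were above every library of the groups given poly(I:C), and 4 of 5 HSC wt libraries were below every EC KO library. The global KO lay between, from 2.65 to 5.66 CPM.

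Sesn2, whose product senses leucine and restrains the growth kinase complex mTORC1, read 10.3, 12.5, 15.2, 23.7 and 14.4 CPM in Spred1 wt 1 to 5. It read 8.34, 9.41, 9.06, 9.30 and 9.87 CPM in HSC KO, the narrowest group, whose 5 libraries were all below Spred1 wt. EC KO lay between 7.72 and 11.4 CPM and HSC wt between 9.40 and 13.4. In the global KO 5 libraries lay between 8.03 and 12.6 CPM and global KO 2 at 18.2.

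Chac1, an enzyme that breaks down glutathione, had the highest biological coefficient of variation of the members, 0.744. The trend over genes of its low level gave 0.425. Among 1000 genes of like level 90.2% had a lower coefficient, against 96.9% for Asns and 94.4% for Slc7a11 among genes of their levels. It read 0.385, 0.665, 0.992, 9.55 and 2.54 CPM in Spred1 wt 1 to 5, and 0.935, 0.259, 0.323, 0.546, 0.333 and 0 CPM in global KO 1 to 6. The count of 0 in global KO 6 allows up to 3 reads, or 0.181 CPM. EC KO read 1.88, 1.27, 0.827, 1.18 and 0.336 CPM, HSC wt between 0.142 and 0.789, and HSC KO between 0.213 and 0.892. The gene lies 2.23 Mb from Spred1 on chromosome 2.

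Slc7a11, the cystine importer that supplies glutathione synthesis, spread widely within every group, with a biological coefficient of variation of 0.652. In Spred1 wt 1 to 5 it read 2.44, 1.71, 5.62, 15.8 and 5.27 CPM, in EC KO 9.33, 9.60, 4.91, 2.47 and 1.39 CPM, and in HSC KO 0.933, 9.28, 2.82, 5.39 and 6.58 CPM. HSC wt lay between 1.94 and 6.59 CPM and the global KO between 1.35 and 6.98. All the groups overlapped.

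Of the enzymes, Asns, which makes asparagine, read 21.03, 18.8, 22.4, 72.2 and 35.1 CPM in Spred1 wt 1 to 5. In EC KO it read 56.0, 42.7, 39.2, 34.9 and 20.8 CPM, and in HSC KO 28.3, 34.2, 22.96, 42.7 and 43.7 CPM. HSC wt lay between 16.5 and 35.4 CPM and the global KO between 17.7 and 29.6, so that the global KO was the narrowest and lowest group on average. The biological coefficient of variation of Asns was 0.343, where the trend over genes of its level gave 0.161.

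Phgdh and Psat1 catalyse the first and second steps of serine synthesis. Phgdh lay between 179 and 237 CPM in Spred1 wt, 206 and 316 in the global KO, 198 and 294 in EC KO, 191 and 252 in HSC wt and 205 and 282 in HSC KO. Psat1 lay between 160 and 262 CPM in Spred1 wt, 154 and 223 in the global KO, 164 and 287 in EC KO, 167 and 219 in HSC wt and 177 and 265 in HSC KO. Neither gene separated any groups.

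The global knockout was compared with Spred1 wt by edgeR's quasi-likelihood test, with Benjamini-Hochberg adjustment over all genes tested and a call at an adjusted p under 0.05. No member passed (0 of 10), where 0.0747% of all genes did (10 genes, and 35 with DESeq2). At an unadjusted p under 0.05 there were 4 members, and 740 of the 13379 genes. Of the 10 members 9 were lower in the global KO, with a median log2 difference of -0.51, where the median over all tested genes was 0.01 and 54.5% of them were higher. Chac1 had the largest difference, log2 -2.77 (SE 0.70, adjusted p = 0.243, 4 of 6 global KO libraries below every Spred1 wt library). DESeq2, which called 0.262% of the genes, called Chac1, with a log2 difference of -2.81 and an adjusted p of 0.0274. Slc7a11 was at -0.99 (SE 0.59), Trib3 at -0.66 (SE 0.36), Atf5 at -0.63 (SE 0.22, adjusted p = 0.580) and Asns at -0.56 (SE 0.30). Ddit3 and Sesn2 were each at -0.47 (SE 0.17 and 0.20), and Phgdh was the exception at 0.19 (SE 0.11).

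Most of these differences shrank when Spred1 wt 4 was left out. The members' median became -0.18, with 6 of 10 lower and the median over all genes at 0.01. Chac1 went to -1.48 (adjusted p = 0.9997), Slc7a11 to -0.28, Asns to -0.09 and Atf5 to -0.29. Trib3 (0.07), Atf4 (0.04) and Psat1 (0.04) changed sign. The share of all genes called stayed at 0.0742%.

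**Figure D2:**
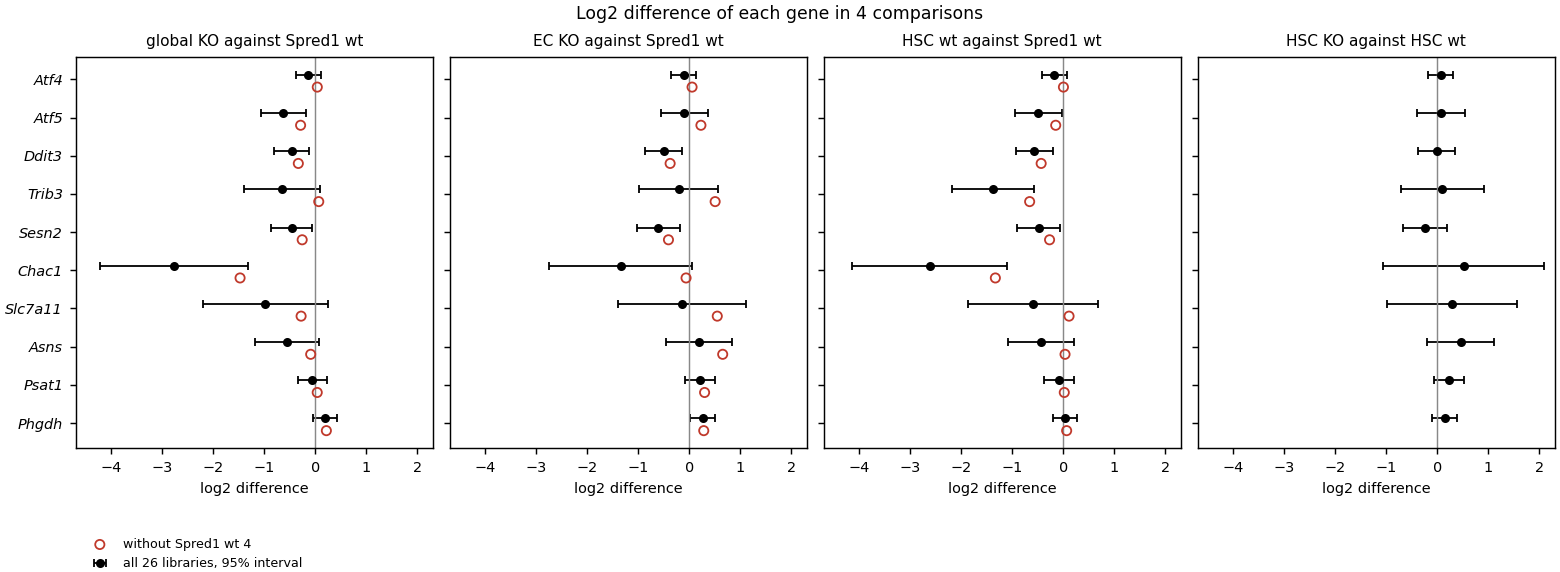
Log2 difference of each gene in 4 comparisons, with all 26 libraries (black, bars are 95% intervals of the edgeR fit) and without the library Spred1 wt 4 (red circles, no interval drawn). The red circles lie nearer 0 or to the right of the black points in the 3 comparisons that use Spred1 wt, most for Chac1, which goes from -2.77 to -1.48 in the global KO.

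The knockout in hematopoietic cells was compared with its own wild type, and both groups received poly(I:C). Spred1 wt enters neither group mean. Its libraries, Spred1 wt 4 among them, do enter the shared fit that sets the spread, and so the SE, intervals and p-values given here. Again 0 of 10 members passed, where 0.0224% of all genes did (3 genes, and 5 or 0.0374% with DESeq2), and 0 members had an unadjusted p under 0.05, against 289 genes. Here 8 of 10 members were higher in the knockout, with a median of 0.12, against 0.02 and 56.9% higher over all genes. Asns was at 0.46 (SE 0.32, 95% interval -0.19 to 1.11, adjusted p = 0.999), Chac1 at 0.52 (SE 0.77) and Psat1 at 0.22 (SE 0.14, 4 of 5 HSC KO libraries above every HSC wt library). Sesn2 was lower, at -0.25 (SE 0.21, 3 of 5 below). For Atf4 the difference was 0.06, with a 95% interval of -0.19 to 0.31, and for Ddit3 -0.01, with an interval of -0.38 to 0.36.

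The difference between the effects of global and hematopoietic Spred1 loss was tested by an interaction of these 2 comparisons. Only the HSC groups are stated to have received poly(I:C), and only they, of these 4 groups, held libraries with high Xist. A difference by the site of Spred1 loss therefore cannot be told apart from one by poly(I:C), Mx1-cre or sex. Again 0 of 10 members passed, where 0.0149% of all genes did (2 genes, and 7 or 0.0523% with DESeq2). At an unadjusted p under 0.05 there were 3 members and 286 genes. The 3 were Chac1 (log2 -3.28, SE 1.04), Asns (-1.02, SE 0.44) and Atf5 (-0.70, SE 0.31), each with a lower value in the global comparison and each with an adjusted p of 0.9998. With Spred1 wt 4 left out they were -1.99, -0.55 and -0.36.

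In EC KO against Spred1 wt, 0 of 10 members passed, where 7.96% of all genes did (1065 of 13379). At an unadjusted p under 0.05 there were 3 members and 3360 genes. Sesn2 (-0.61, SE 0.21, adjusted p = 0.0653) and Ddit3 (-0.50, SE 0.18, adjusted p = 0.0753) were lower and Phgdh (0.26, SE 0.12, adjusted p = 0.161, 4 of 5 EC KO libraries above every Spred1 wt library) was higher. DESeq2 called 11.5% of the genes it tested (1532 of 13378) and 2 of the 10 members, Sesn2 at -0.62 and Ddit3 at -0.52. In all, 7 of 10 members were lower, with a median of -0.13, and without Spred1 wt 4 the count turned to 7 of 10 higher with a median of 0.25. Asns, at 0.19 with all libraries, was at 0.65 without it (adjusted p = 0.122), and Trib3 went from -0.21 to 0.51. Sesn2 and Ddit3 stayed lower, at -0.41 and -0.38.

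The 2 wild types were compared with each other because only HSC wt is stated to have received poly(I:C). No member passed (0 of 10), where 0.0299% of all genes did (4 genes, and 32 or 0.239% with DESeq2). At an unadjusted p under 0.05 there were 5 members and 850 genes. In HSC wt, 9 of 10 members were lower, with a median of -0.48, against -0.01 and 47.9% higher over all genes. Chac1 was at -2.62 (SE 0.74, adjusted p = 0.360), Trib3 at -1.39 (SE 0.39, adjusted p = 0.360) and Ddit3 at -0.57 (SE 0.18, adjusted p = 0.468). Leaving out Spred1 wt 4 brought the median to -0.07 and the count to 5 of 10 lower, with Trib3 at -0.66 and Ddit3 at -0.44. The 3 comparisons with Spred1 wt share its 5 libraries, so a member that is high there is lower in all of them.

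A joint test of any difference among the 5 groups called 2 of the 10 members, where 8.45% of all genes were called (1131). They were Chac1 (adjusted p = 0.0288) and Trib3 (adjusted p = 0.0465). Ddit3 (0.0932) and Sesn2 (0.108) followed. Chac1 was not called without Spred1 wt 4 (adjusted p = 0.230), Spred1 wt 5 or either of EC KO 3 and EC KO 4. Trib3 was still called without Spred1 wt 4 (adjusted p = 0.0262), but not in 18 of the 26 fits that each left out a library, where its adjusted p reached 0.0898.

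Of the remaining pairs of groups, HSC wt against EC KO was listed as another control for EC KO, and the others were examined after these results were seen. Among all 10 pairs and 10 members, 1 of 100 differences passed. Trib3 was higher in EC KO, at 5.19 ± 1.79 CPM (SD, n = 5), than in HSC wt, at 2.29 ± 0.352 CPM (n = 5), a 2.26-fold difference (log2 -1.18 for HSC wt against EC KO, SE 0.39, adjusted p = 0.0498), where 11.3% of all genes were called. This call was marginal. It was not made in 21 of the 26 fits that each left out a library (log2 -1.334 to -1.005, adjusted p = 0.00847 to 0.136), among them all 5 without an HSC wt library and 4 of the 5 without an EC KO library. In HSC KO against EC KO, where 8.89% of all genes were called, Trib3 was at -1.08 (SE 0.39, adjusted p = 0.0842) and 0 of 10 members passed, although Trib3 did in 3 of the 26 fits. No member passed in global KO against EC KO (0 of 10, 8.67% of all genes), global KO against HSC KO (0 of 10, 0.0673%), global KO against HSC wt (0 of 10, 0.194%) or Spred1 wt against HSC KO (0 of 10, 0.142%). In the last of these Sesn2 was 1.65-fold higher in Spred1 wt, with all 5 libraries above every HSC KO library (adjusted p = 0.143), and 1.43-fold higher without Spred1 wt 4 (adjusted p = 0.292, 0.0890% of all genes called).

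Although few group differences passed, the members varied together between libraries of the same group. After the group mean of log2 CPM was removed, 43 of the 45 pairs had a positive Pearson r over 26 libraries, with a median of 0.49, and 20 passed a permutation test within groups (100000 resamples, Benjamini-Hochberg over 45 pairs), 19 of them positive. When Spred1 wt 4 was left out, 33 of 45 were positive, the median was 0.29, and 10 passed, all of them among the 20. Over the 10480 genes of at least 5 CPM, the median r with the members' mean was 0.08. That is r with a mean, so it gives no background for the r of pairs of genes. The points share library depth and cell composition, so r is a description of these libraries.

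Asns, Atf5, Chac1 and Psat1 formed the tightest group. Of these, Asns and Chac1 held the response element core shown above, and Atf5 and Psat1 did not. A relation between the core and the correlations was not tested. Atf5 with Asns had r = 0.87 and rho = 0.83 (adjusted permutation p = 0.00045), and r = 0.80 without the 2 libraries farthest on the first gene. Chac1 with Asns had r = 0.85 and rho = 0.81 (adjusted permutation p = 0.00045), and 0.81 without the 2 farthest. Atf5 with Chac1 had r = 0.82 and rho = 0.70 (adjusted permutation p = 0.00054, 0.70 without the 2 farthest). Leaving out Spred1 wt 4 gave r of 0.78, 0.77 and 0.72, which passed in each case. Psat1 with Atf5 (0.76), Chac1 (0.75) and Asns (0.75) was at 0.74, 0.71 and 0.71 without that library. Slc7a11, the third gene with the core, had r = 0.63 with Asns and 0.54 with Chac1, which became 0.52 and 0.41 and no longer passed. With Psat1 and Atf5, whose windows lack the core, Slc7a11 had r = 0.68 and 0.66. These became 0.63 and 0.57 without Spred1 wt 4 and still passed.

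The serine synthesis pair Psat1 and Phgdh had r = 0.76 and rho = 0.84 (adjusted permutation p = 0.00045), r = 0.69 without the 2 farthest libraries and 0.76 without Spred1 wt 4. Ddit3 went the other way from Phgdh, with r = -0.49 and rho = -0.47 (adjusted permutation p = 0.0476), -0.57 without the 2 farthest and -0.64 without Spred1 wt 4, which passed. Atf4 passed with 3 members over all libraries (Sesn2 at 0.64, Slc7a11 at 0.60 and Ddit3 at 0.55) and with 0 without Spred1 wt 4. Trib3 passed with 0 in either case, and its median r was 0.32 with all libraries and -0.03 without Spred1 wt 4.

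**Figure D3:**
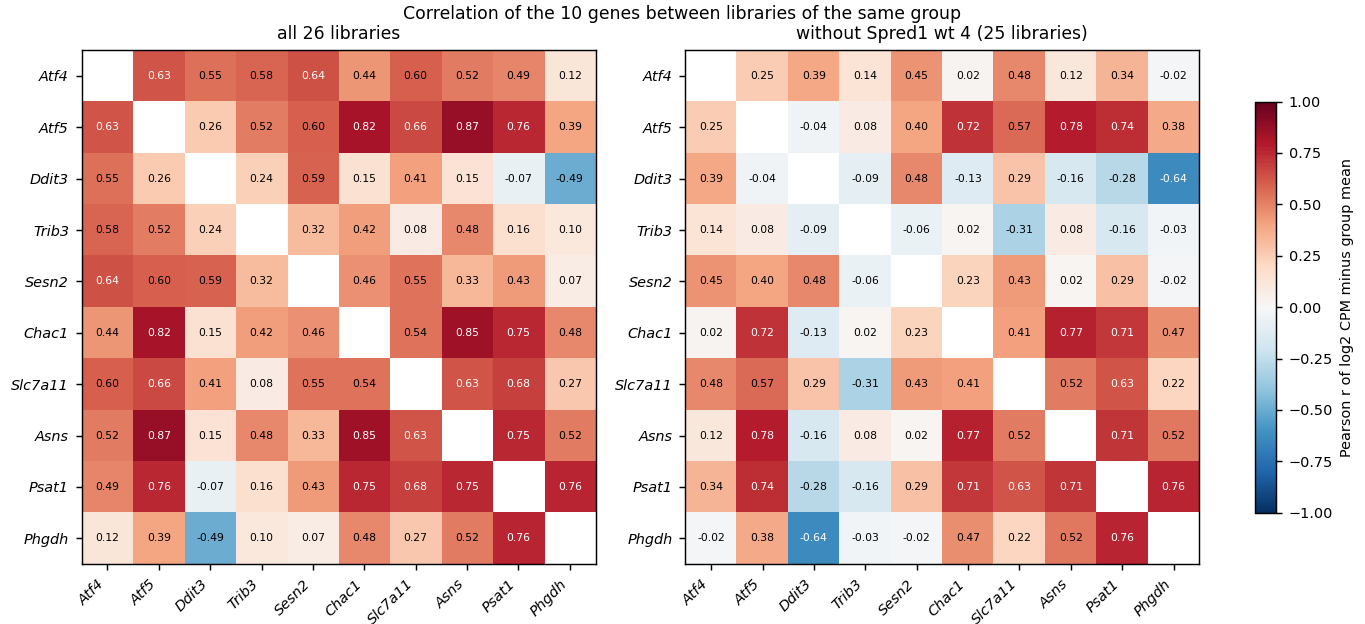
Pearson r of log2 CPM minus the group mean for each pair of the 10 genes, over all 26 libraries (left) and without Spred1 wt 4 (right); red is positive and blue negative. The block of Atf5, Chac1, Asns and Psat1 stays at 0.71 or above on the right, the row of Trib3 has a median of -0.03 there and reaches -0.31 with Slc7a11, and Ddit3 with Phgdh is the most negative pair at -0.64.

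**Figure D4:**
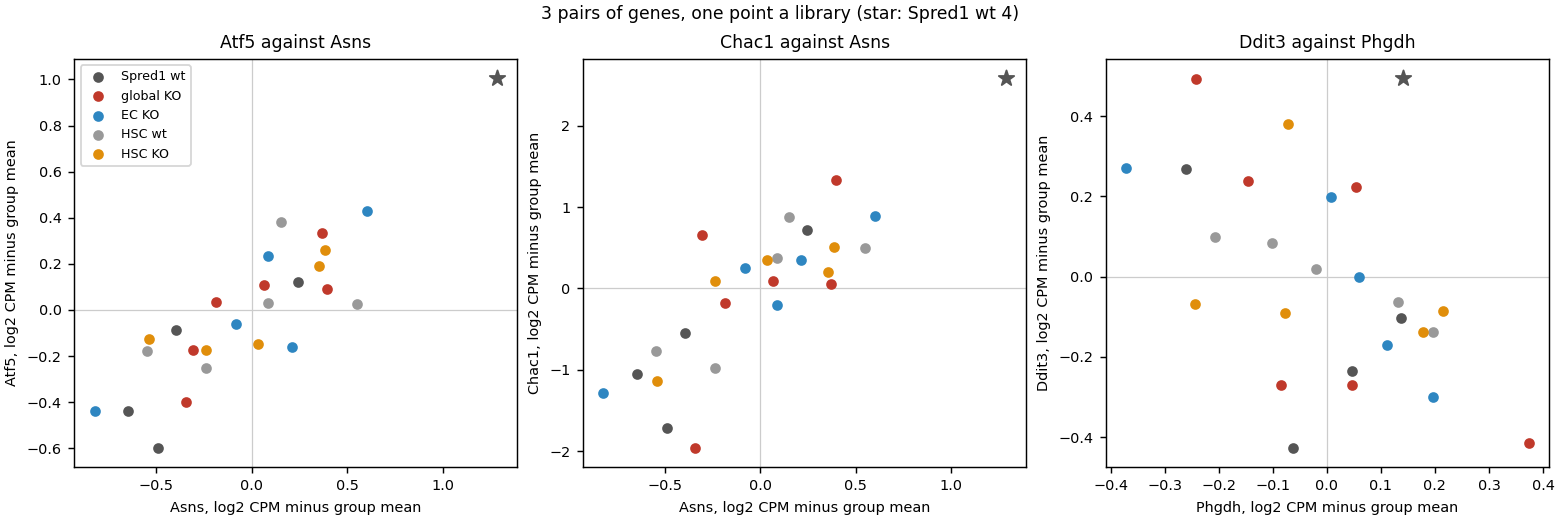
Atf5 and Chac1 against Asns, and Ddit3 against Phgdh, as log2 CPM minus the group mean, with a point for each of the 26 libraries coloured by group and a star for Spred1 wt 4. The first 2 panels rise (r of 0.87 and 0.85) and the third falls (r of -0.49) and the star lies to the upper right of its trend.

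The genes most like each member were named by the highest r of the same group-centred values. Closest to the mean of the 10 members were Gpr141, an orphan receptor (r = 0.91), Mthfd2, the mitochondrial folate enzyme that is a known ATF4 target (0.90), Bcat1, which transfers amino groups from branched-chain amino acids (0.88), and Slc1a4, a transporter of neutral amino acids (0.87). Mcfd2, Cers6, Slc1a5, Ide, Nxn and Arfip2 followed, at 0.86 to 0.83. Without Spred1 wt 4 Mthfd2 was at 0.84 (rank 13) and Bcat1 at 0.83 (rank 16), while Slc1a4 fell to 0.72 and to rank 426. Ide, Slc1a5 and Arfip2 fell to ranks 325, 330 and 515, and Gpr141, Nxn, Cers6 and Mcfd2 were at ranks 4, 8, 35 and 42. Of the nearest 100 genes with all libraries, 37 were among the nearest 100 without this library.

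Asns was followed most closely by Gpt2, the mitochondrial alanine transaminase (0.90), Pcid2 (0.88) and Slc1a4 (0.85). Nearest to Psat1 were the tRNA synthetases Gars (0.98) and Yars (0.97) with Timm23, part of the mitochondrial import channel (0.97), and these were 0.98, 0.96 and 0.97 without Spred1 wt 4. Phgdh was nearest to Timm50 (0.93), Bub3 (0.93) and Psmb4 (0.91). Atf5 was nearest to Kcnk6 (0.88), Gpr141 (0.85) and Gpt2 (0.84), and Chac1 to Gpr141 (0.84), Pcid2 (0.83) and Mpo, the myeloperoxidase of granulocyte precursors (0.83).

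Among the remaining members, Ddit3 was nearest to Tnfaip3, an inhibitor of NF-kappaB signalling (0.84), Esyt2 (0.83) and Egr3, an immediate early factor (0.83). Atf4 was nearest to Cytip (0.87), Ifrd1 (0.87) and Gadd45b (0.82), and Sesn2 to Tnfsf14 (0.79), Slc6a9 (0.78) and P2ry1 (0.77). Slc7a11 was nearest to the metallothionein Mt1 (0.90), the copper transporter Slc31a2 (0.88) and Baz1a (0.88). Trib3 had the weakest matches, Hebp1 (0.72), Eif1 (0.72) and Nnt (0.69), which were 0.55, 0.59 and 0.51 without Spred1 wt 4.

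The members were also set beside 11 lists of markers of cell types and cell states, by the same group-centred correlation. Of 110 relations 23 passed by r and 18 by rho (adjusted over 110). Phgdh and Psat1 rose with S phase genes, with r of 0.81 and 0.75 (rho 0.81 and 0.78, adjusted permutation p = 0.0011 and 0.00242, r = 0.77 and 0.71 without the 2 farthest libraries). Phgdh fell with immediate early genes (r = -0.73, rho = -0.72, adjusted permutation p = 0.00367, -0.62 without the 2 farthest), and Ddit3 rose with them (r = 0.72, rho = 0.72, adjusted permutation p = 0.00644, 0.71). Slc7a11 rose with mast cell and basophil markers (r = 0.79, rho = 0.78, adjusted permutation p = 0.0022, 0.71). It fell with endothelial markers (r = -0.84, rho = -0.84, adjusted permutation p = 0.0011, -0.79) and with erythroid markers (r = -0.77, rho = -0.79, adjusted permutation p = 0.00242, -0.67). Slc7a11 also fell with lineage (-0.73), plasma cell (-0.71), interferon-stimulated (-0.69) and macrophage and monocyte genes (-0.59), which passed by r and rho. Against the 6 LSK sort markers 5 members had a negative r that passed. Atf4 was at -0.63 (rho -0.57, adjusted permutation p = 0.00812, -0.57 without the 2 farthest) and Psat1 at -0.66 (rho -0.61, adjusted permutation p = 0.00919, -0.61). Asns (-0.61), Chac1 (-0.59) and Slc7a11 (-0.56) each had an adjusted permutation p of 0.0343 and passed by r but not by rho. The remaining relations that passed by r were negative as well. They were Atf4 with endothelial (-0.66) and erythroid (-0.46) markers and Atf5 with the same lists (-0.53 and -0.46). Psat1 fell with lineage (-0.68), erythroid (-0.58) and interferon-stimulated (-0.55) genes. Of these, only Atf4 with endothelial markers and Atf5 with both lists passed by rho. The part of cell composition in the members' joint variation was not tested.

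The wider pathway was described through lists of the genes around the members. Against the 0.0747% called in the global KO and 0.0224% in HSC KO, 0 of the tested genes passed in any of the 9 lists. Cth, which makes cysteine, was at 0.252 ± 0.147 CPM (SD, n = 6) in the global KO and 2.41 ± 4.16 CPM (n = 5) in Spred1 wt (log2 -3.22, SE 0.91, adjusted p = 0.311). The mitochondrial folate enzyme Aldh1l2 was at -1.55 (SE 0.69, adjusted p = 0.863), Slc1a4 at -0.80 (SE 0.35, adjusted p = 0.843) and the stress cofactor Nupr1 at -0.69 (SE 0.33, adjusted p = 0.897). Without Spred1 wt 4 these were -1.16 for Cth, -0.50 for Aldh1l2, -0.04 for Slc1a4 and -0.05 for Nupr1, each with an adjusted p of 0.9997. In HSC KO, Aldh1l2 was at 1.42 (SE 0.76), Slc1a4 at 0.59 (SE 0.37) and the lipoprotein receptor Vldlr at -0.51 (SE 0.15), each with an adjusted p of 0.999.

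By direction, with no gene passing, most lists were lower on balance in the global KO and higher in HSC KO. Over all tested genes 54.5% were higher in the global KO, 53.3% there without Spred1 wt 4, and 56.9% in HSC KO. The split in the global KO was close to even for the synthetases, the NRF2 genes and the serine, glycine and one-carbon enzymes. In all of these lists except the ER list the lower balance in the global KO turned without Spred1 wt 4, for the NRF2 genes only from 6 to 7 of 13 higher. Of the 22 ER chaperone and XBP1-ATF6 genes 19 were lower in the global KO (median -0.11) and 21 higher in HSC KO (median 0.11). Without Spred1 wt 4 the first count became 13 of 22 lower with a median of -0.01. All 21 aminoacyl-tRNA synthetases were higher in HSC KO (median 0.10). In the global KO 10 of 21 were higher with all libraries (median -0.02) and 20 of 21 without Spred1 wt 4 (median 0.05). The eIF2 kinases and regulators were higher in 15 of 17 in HSC KO, and in the global KO in 7 of 17 with that library and 14 of 17 without it. Amino acid transporters were higher in 10 of 14 in HSC KO, and in the global KO in 5 of 14 and, without Spred1 wt 4, 8 of 14. The serine, glycine and one-carbon enzymes were higher in 11 of 15 in HSC KO, and in the global KO in 7 of 15 and 11 of 15. NRF2 antioxidant genes, which include a member, were higher in 9 of 13 in HSC KO, and in the global KO in 6 of 13 and 7 of 13. The remaining lists ran the same way in both knockouts or had no clear balance. Further ATF4 targets were higher in 6 of 20 in HSC KO, and in the global KO in 7 of 20 and, without Spred1 wt 4, 8 of 21. The sestrin and mTORC1 regulators, which include the member Sesn2, were higher in 9 of 14 in HSC KO, and in 12 of 14 and 10 of 14 in the global KO. The bZIP partners were higher in 3 of 8 in HSC KO and in 4 of 8 in the global KO, with and without that library.

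In EC KO against Spred1 wt, 7.96% of all genes were called, and the lists held 9 called genes. Of the bZIP partners Atf3, an early stress factor, fell from 10.7 ± 8.59 to 1.43 ± 0.848 CPM (SD, n = 5 each; log2 -2.88, SE 0.76, adjusted p = 0.0209). Of 17 eIF2 kinases and regulators 1 rose, Gcn1l1, a partner of the kinase GCN2 (0.26, adjusted p = 0.0328). Of 15 serine, glycine and one-carbon enzymes 3 rose, among them the nucleotide synthesis enzyme Tyms (log2 0.28, adjusted p = 0.0197). Of 22 ER genes 2 fell, Sel1l of ER-associated degradation (-0.35, adjusted p = 0.00534) and the stress sensor Ern1 (-0.39, adjusted p = 0.0141). Cdkn1a, the cell cycle inhibitor p21, fell (-0.85, adjusted p = 0.0412), 1 of 20 further ATF4 targets, and Mtor fell (-0.27, adjusted p = 0.00746), 1 of 14 sestrin and mTORC1 regulators. None of 14 transporters, 21 tRNA synthetases and 13 NRF2 genes passed. Without Spred1 wt 4, where 7.75% of all genes were called, Atf3 (-2.53, adjusted p = 0.0470), Gcn1l1 (0.27, adjusted p = 0.0352), Tyms, Sel1l, Ern1 and Mtor still passed, Cdkn1a did not (-0.84, adjusted p = 0.0588), and 2 of the 3 one-carbon enzymes did. Newly called there, and named after their values were seen, were the eIF2 subunit gene Eif2s2 (0.58, adjusted p = 0.0335), the ATF4 target Ndrg1 (-0.61, adjusted p = 0.0396) and the tRNA synthetase Dars (0.35, adjusted p = 0.0475). In the same comparison all 16 immediate early genes, Atf3 among them, were lower (median -0.77, 2 called). All 16 S phase genes were higher (median 0.21, 3 called). Both directions held without Spred1 wt 4 (2 called in each). The part of either list in the members' differences was not tested.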

How the data were processed

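RNA-seq libraries of sorted LSK cells were grouped by their titles. The authors deposited raw read counts per gene, whole numbers without normalization. Build mm10, HTSeq 0.6.0 and STAR 2.6.0 are named in the submitters' processing notes, with bcl2fastq 2.18.0.12 and edgeR 3.28.1. The annotation, the strand setting and the handling of reads shared with pseudogene copies or overlapping genes are not given in the sources used here, so counts of Phgdh, which has an annotated pseudogene, are uncertain to that extent. Of the 26 columns 0 were identical to another and 0 were unmapped.

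Total counts were 14816071 to 26714325, and intervals and the floor of 3 reads for a count of 0 cover counting error only. CPM used TMM-scaled library sizes, and CPM per kb the transcript length in the table. All 26 libraries entered 1 fit of 5 group means with edgeR 4.0.16 (R 4.3.3, limma 3.58.1, filterByExpr with a minimum count of 10, quasi-likelihood F-test, robust, two-sided, 21 residual degrees of freedom). The labels give 5 mice per group for the HSC and EC groups. For global KO and Spred1 wt they do not say that each library is a separate mouse, so p-values there measure the spread between these libraries. Log2 CPM for correlations used a prior count of 2, and permutations ran within groups (NumPy 2.4.6, the smallest p possible 1e-05). Both steps were tested on simulated data.

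Named genes are the members, Spred1, the genes of each pathway list that passed in a comparison or had the 2 smallest p in either knockout, and the nearest genes by r (3 per member, 10 for the mean, at least 5 CPM). Listed symbols that the table does not hold were left out, and some listed genes are counted but not reported here by name. Alternatives were RLE size factors, other filters (none, or 1 CPM in 5 libraries), Xist or mast cell covariates, the compared groups alone, voom with quality weights, DESeq2 1.42.0, other controls for EC KO and each library left out. The other pairs of groups, the fits of these pairs with each library left out, and the correlations and named list genes without Spred1 wt 4 were added after seeing the data. The members and lists were chosen with earlier results of these data known. Promoter sequences are from RefSeq (GRCm38.p6).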

Additional observations from a re-analysis of the deposited data

Results flagged for a closer look

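In 5 of 50 groups of libraries (10 members in 5 groups), the highest or lowest library was farther from the rest than Dixon's 95% criterion allows, where chance gives about 1 in 20. In 3 of these the library was Spred1 wt 4, which read 9.55 CPM of Chac1, 15.7 CPM of Trib3 and 15.8 CPM of Slc7a11, against 1.14 ± 0.961, 3.61 ± 1.39 and 3.76 ± 1.98 CPM (mean ± SD) in the other 4 Spred1 wt libraries. The others were Ddit3 in HSC KO 2, at 12.4 CPM where the other 4 libraries lay between 8.60 and 9.04, and Slc7a11 in global KO 2, at 6.98 CPM where the next was 3.33.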

How the results depend on the processing

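Over the 5 comparisons and all alternatives, the 10 members gave 1040 values, of which 979 kept their direction and side of the threshold, 52 changed sign and 10 newly passed, 1 of these (Trib3 in EC KO with HSC wt as the control) with a changed sign. With a mast cell covariate the counts of genes called were 20 (global KO), 5 (HSC KO), 2659 (EC KO) and 56 (HSC wt against Spred1 wt). Psat1 (global KO), Ddit3 (HSC KO) and, in EC KO, Atf4, Atf5 and Slc7a11 changed sign, to log2 0.052, 0.041, 0.019, 0.11 and 1.31, and Psat1 passed in EC KO at 0.44. With the compared groups alone the counts were 4 (global KO), 333 (EC KO) and 1 (HSC wt against Spred1 wt). With voom they were 1824 (EC KO), 18 (HSC wt against Spred1 wt) and 5 (difference of effects). There Phgdh passed in EC KO at 0.34, and the sign changed for Psat1 in the global KO (0.031), for Atf5 (0.15), Trib3 (0.057) and Slc7a11 (0.47) in EC KO, and for Psat1 (0.053) and Slc7a11 (0.12) in HSC wt against Spred1 wt. DESeq2 called 35 genes in the global KO, 5 in HSC KO, 7 in the difference of effects and 32 in HSC wt against Spred1 wt. With an Xist covariate Ddit3 in HSC KO was at 0.0096, Asns in EC KO at -0.020 and Phgdh in HSC wt against Spred1 wt at -0.020. With HSC wt as the control of EC KO, Atf4 (0.061), Atf5 (0.39), Ddit3 (0.068), Trib3 (1.18), Chac1 (1.28) and Slc7a11 (0.45) were higher in EC KO, and Trib3 passed (adjusted p = 0.0498). With the mean of both wild types 2052 genes were called and Atf5 (0.14), Trib3 (0.48) and Slc7a11 (0.15) were higher. The causes were not tested.

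Leaving out each library in turn gave 8 to 25 genes called in the global KO, 3 to 3 in HSC KO, 483 to 1880 in EC KO, 1 to 21 in HSC wt against Spred1 wt, 2 to 7 in the difference and 579 to 1456 among the 5 groups. Members that changed sign in some of these fits spanned, in the global KO, Atf4 -0.21 to 0.037, Trib3 -0.89 to 0.066 and Psat1 -0.14 to 0.036. In HSC KO they spanned Atf5 -0.0030 to 0.17, Ddit3 -0.12 to 0.021, Trib3 -0.084 to 0.20 and Slc7a11 -0.058 to 0.56. In EC KO they spanned Atf4 -0.19 to 0.053, Atf5 -0.25 to 0.23, Trib3 -0.45 to 0.51 and Slc7a11 -0.45 to 0.55. In HSC wt against Spred1 wt they spanned Atf4 -0.24 to 0.0016, Asns -0.59 to 0.033, Psat1 -0.16 to 0.018, Phgdh -0.018 to 0.087 and Slc7a11 -0.84 to 0.11, and in the difference Phgdh -0.042 to 0.10. In EC KO, Ddit3 and Phgdh passed without EC KO 5 and Ddit3 and Sesn2 without Spred1 wt 1. The latter pair also passed among the 5 groups without global KO 2 or Spred1 wt 1.

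Without the 2 farthest libraries r changed sign for Atf4 with Phgdh (-0.097), Atf5 with Ddit3 (-0.14), Ddit3 with Chac1 (-0.069) and Asns (-0.069) and Trib3 with Slc7a11 (-0.21). Without Spred1 wt 4 it did for Atf4 with Phgdh (-0.017), Sesn2 with Phgdh (-0.021), Ddit3 with Atf5 (-0.038), Trib3 (-0.090), Chac1 (-0.13) and Asns (-0.16), and Trib3 with Sesn2 (-0.063), Psat1 (-0.16), Phgdh (-0.027) and Slc7a11 (-0.31). None of these pairs passed with all libraries. No paired analysis was possible because the labels give the groups no shared replicate numbers. Depth limits Chac1 most, which had between 0 and 147 reads per library.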
